A study of Mus musculus with 6 samples.

Results

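The genes described here are 10 genes best known from brown and beige fat: Ucp1, Otop1, Cidea, Dio2, Prdm16, Ppargc1a, Elovl3, Cox7a1, Cox8b and Ckmt2. They were taken by symbol from a count table of 54532 gene identifiers, and each symbol had 1 row. The tissue sequenced was epididymal white adipose tissue (eWAT), a visceral fat pad, of mice kept on a high-fat diet for 16 weeks. In 3 libraries the mice were PD-1fl/fl Lyz2-Cre, in which Cre made from the Lyz2 locus deletes the inhibitory receptor PD-1 in macrophages and other myeloid cells. In the 3 control libraries they were PD-1fl/fl littermates, so both groups carried the floxed allele and ate the same diet. Lyz2-Cre is not restricted to adipose macrophages, and the sources used here name neither the sex nor the age of the mice. Each library title carries its own number, but no label says that it is the number of an animal. The p-values therefore describe the spread between libraries, which may be technical.

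Thermogenic fat cells burn fuel to make heat. Noradrenaline from sympathetic nerves acts on the beta-adrenergic receptor, cyclic AMP rises, lipid is broken down, and the fatty acids feed mitochondria in which UCP1 lets protons leak back across the inner membrane without making ATP. Beige cells with this equipment can arise within white depots, and the epididymal pad is known as one of the depots least prone to it.

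Totals ran from 20108185 to 27225533 counts per library. Values are given throughout in the order of replicates 1 to 3, knockouts first. Pdcd1, the gene of PD-1, had 19, 19 and 5 counts against 13, 0 and 0 in the controls. Such counts can also come from cells that Lyz2-Cre leaves intact, such as T cells, and the deleted exons are not named in the sources used here, so they do not check the genotype labels. Control replicate 2 had the profile of liver, not fat. Its 10 adipocyte markers summed to 293.9 CPM (counts scaled for library depth and by TMM factors) against 6584 to 19210 in the other 5 libraries, with no marker at 0 in any library. Alb, the serum albumin gene of hepatocytes, took 8.27% of its counts and 0.436% of those of control replicate 3. Fold changes and list medians that leaving it out moved by over 1.5 times or turned are given with and without it. Differences are knockout against control on the log2 scale. Across all genes the edgeR quasi-likelihood test called 0 of 15928 (0% at adjusted p under 0.05) with all 6 libraries. Leaving out control replicate 2, it called 0 of 16729 (0%). Before adjustment, 1377 and 1499 genes had p under 0.05, and DESeq2 called 525 (3.3%) and 452 (2.7%).

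Of the 10 thermogenic genes, 9 had enough counts to be tested and Ckmt2 did not. Log2 fold changes were above 0 for 7 and below 0 for 2, with a median of 1.03 (0.78 without control replicate 2) beside −0.03 over all genes tested. The edgeR test called none of the 9 at adjusted p under 0.05. DESeq2 called Ucp1 and Otop1 higher and Elovl3 lower, and without control replicate 2 it called Ucp1 and Otop1 alone. All 3 knockout libraries lay above all 3 control libraries for 4 genes, Ucp1, Otop1, Dio2 and Prdm16, where 9.54% of all genes tested did so. Without control replicate 2 it was again 4 of 9, against 13.4% of all genes. No member lay below the controls in every knockout, as 5.61% of all genes did. The count is not independent of the filter on low counts, which asked for about 0.414 CPM in 3 libraries: Ucp1 and Dio2 passed it through the knockouts alone and Otop1 through the knockouts and 1 control.

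**Figure D1:**
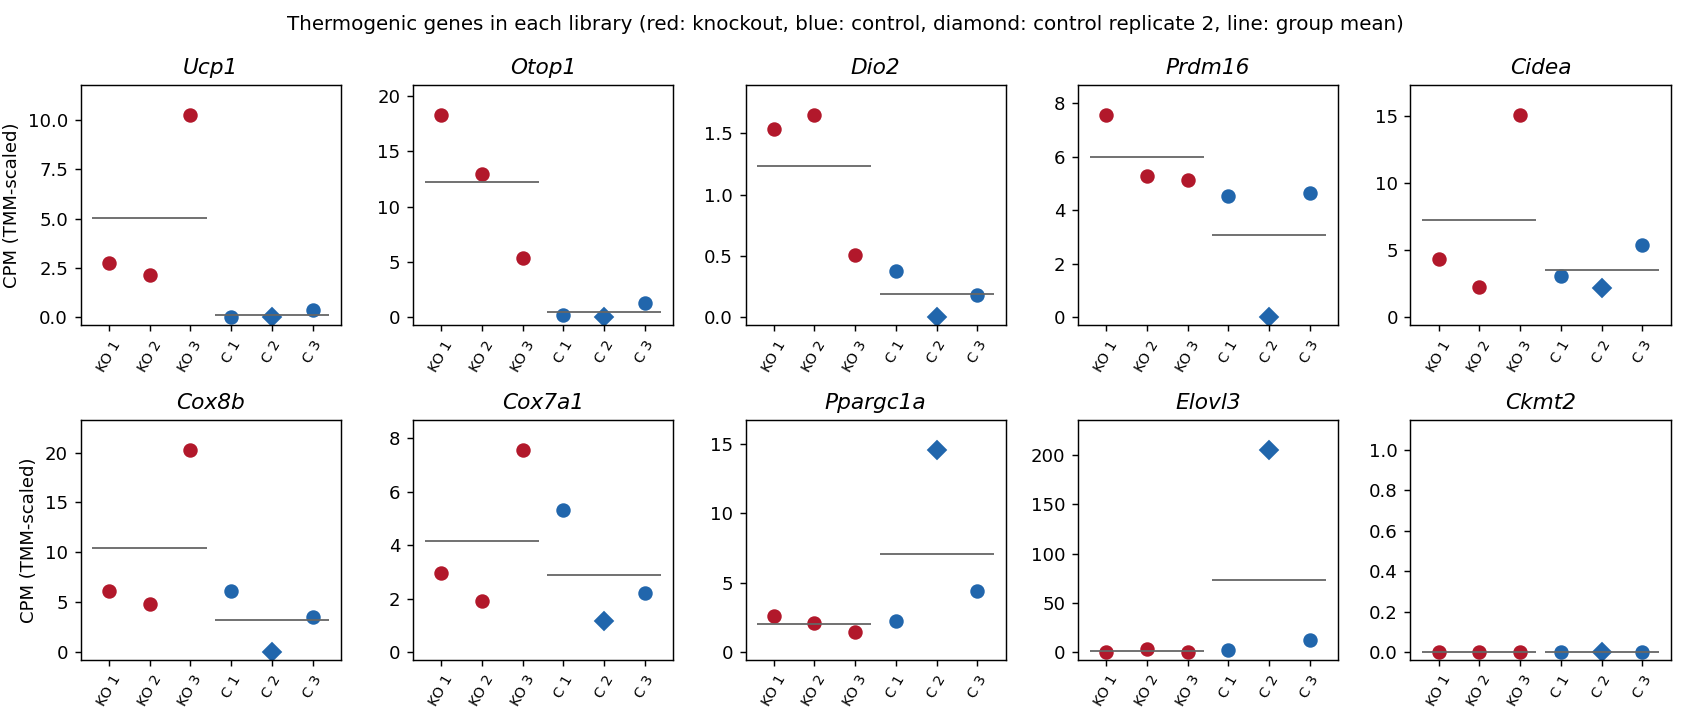
CPM of each thermogenic gene (vertical axis, linear, TMM-scaled, with its own range per gene) in the 6 libraries, with knockouts in red, controls in blue, control replicate 2 as a diamond and group means as grey lines. Ucp1 lies between 2.14 and 10.3 CPM in the knockouts and at most at 0.367 CPM in the controls, whereas Cidea, Cox7a1, Cox8b, Ppargc1a and Elovl3 overlap between the groups.

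Ucp1 encodes the uncoupling protein that defines thermogenic fat (chromosome 8, 83290352 to 83298452, plus strand, GRCm38). It had 85, 61 and 264 counts in the knockouts and 0, 0 and 10 in the controls. In CPM these were 2.78, 2.14 and 10.3 against 0, 0 and 0.367, where 3 counts, taken as the floor of detection, correspond to 0.098 to 0.268 CPM. Every knockout was above every control, and the lowest knockout was 5.84 times the highest control. The means were 5.05 ± 4.51 (SD, n = 3) and 0.122 ± 0.212 CPM. On the log2 scale the fold change was 5.15 ± 1.51 (SE; edgeR adjusted p 0.560), or 4.75 ± 1.49 without control replicate 2 (edgeR adjusted p 0.540). DESeq2 gave 5.24 with an adjusted p of 0.0133, and 4.78 with 0.00851 without control replicate 2. Control replicate 3 held all of the control counts, so without it no fold is given. Among the knockouts, replicate 3 had the most Ucp1, and it also had the most adipocyte RNA of the 3, with an adipocyte list mean of 9.98 log2(CPM + 1) against 8.99 and 8.64.

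Ucp1 was also set against adipocyte RNA, as its log2(CPM + 1) minus the mean of the 10 adipocyte markers. This was −7.07, −6.99 and −6.49 in the knockouts and −9.99, −4.21 and −9.35 in the controls. Control replicates 1 and 2 had no Ucp1 count, so their values are minus the library's adipocyte mean and are set by the pseudocount of 1. With all 6 libraries the groups differed by 1.00 (exact two-sided permutation p 0.5), and without control replicate 2 by 2.82, with the 3 knockouts above both remaining controls. On the same scale without control replicate 2, 6 of the 9 genes tested had all knockouts above both controls, against 21.5% of all genes. These were Ucp1, Otop1, Cidea, Dio2, Cox7a1 and Cox8b. With all 6 libraries 0 did, against 0.0753%. This count of 6 is not independent of the low-count filter either, which Ucp1 and Dio2 passed through the knockouts alone and Otop1 with 1 control. Dio2 separated narrowly, at −9.39 in knockout replicate 3 against −9.53 in control replicate 1. In bulk tissue, fewer cells of a type and less RNA per cell cannot be told apart.

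Otop1 encodes otopetrin 1, a proton channel whose RNA is a known marker of brown fat (chromosome 5, 38275972 to 38304217, plus strand). It had 559, 369 and 139 counts in the knockouts and 6, 0 and 34 in the controls. In CPM these were 18.3, 12.9 and 5.39 against 0.225, 0 and 1.25. The groups did not overlap, and the lowest knockout was 4.33 times the highest control. The means were 12.2 ± 6.47 and 0.490 ± 0.664 CPM (SD, n = 3), and the log2 fold change was 4.54 ± 1.25 (edgeR adjusted p 0.560), or 4.06 ± 0.94 without control replicate 2 (edgeR adjusted p 0.540). DESeq2 gave adjusted p of 0.00581 and 0.000328. Within the knockouts Otop1 was lowest in replicate 3, where Ucp1 was highest. The macrophage markers, like Otop1, were higher in knockout replicates 1 and 2 than in replicate 3, with list means of 7.57, 7.93 and 5.72 log2(CPM + 1) against 5.13, 3.58 and 4.99 in the controls. All 10 macrophage markers had a log2 fold change above 0, none was at 0 counts in any library, and they summed to 852 to 4534 CPM in the knockouts and 272.2 to 700.0 in the controls. The part of macrophage RNA in the Otop1 values was not tested.

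Dio2 encodes the type 2 deiodinase, which makes active thyroid hormone inside thermogenic cells (chromosome 12, 90724552 to 90738438, minus strand). Its counts were low, at 47, 47 and 13 in the knockouts and 10, 0 and 5 in the controls. In CPM these were 1.54, 1.65 and 0.505 against 0.375, 0 and 0.183. The groups did not overlap, but the lowest knockout was only 1.35 times the highest control. The log2 fold change was 2.58 ± 1.06 (edgeR adjusted p 0.560) and 2.14 ± 0.85 without control replicate 2 (edgeR adjusted p 0.551), and DESeq2 did not call it (adjusted p 0.168 and 0.254). Knockout replicates 1 and 2, the libraries with the highest macrophage list means, had the most Dio2, and the part of macrophage RNA in this was not tested.

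The promoters of Ucp1, Otop1, Dio2 and Ppargc1a are shown because 3 of these genes had the highest fold changes of the set and Ppargc1a, the cyclic AMP-responsive coactivator, had one below 0. The windows run from 250 bases before to 50 after the RefSeq start (GRCm38.p6), read 5′ to 3′ on the gene's strand. Capitals mark motifs found on either strand: TGACG is the half-site of the cyclic AMP response element and TGACGTCA its full form. A TATA box, TATAAA, is in capitals too. The windows of 8 of the 10 genes were searched, and Elovl3 and Cidea were left out of the search, so the motif counts do not cover them.
Ucp1, chr8:83290098-83290397, plus strand: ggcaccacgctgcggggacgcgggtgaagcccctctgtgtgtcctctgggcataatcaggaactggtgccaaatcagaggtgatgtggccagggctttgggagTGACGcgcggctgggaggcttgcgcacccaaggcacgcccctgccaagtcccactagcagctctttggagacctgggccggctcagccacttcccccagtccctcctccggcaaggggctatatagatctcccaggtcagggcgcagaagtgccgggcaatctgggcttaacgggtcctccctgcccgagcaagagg
Otop1, chr5:38277154-38277453, plus strand: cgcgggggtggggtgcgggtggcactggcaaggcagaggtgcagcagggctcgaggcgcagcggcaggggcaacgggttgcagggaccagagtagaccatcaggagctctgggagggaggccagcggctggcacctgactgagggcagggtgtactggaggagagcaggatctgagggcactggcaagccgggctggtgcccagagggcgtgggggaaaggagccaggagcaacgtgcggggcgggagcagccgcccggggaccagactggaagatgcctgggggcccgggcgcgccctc
Dio2, chr12:90738989-90739288, minus strand: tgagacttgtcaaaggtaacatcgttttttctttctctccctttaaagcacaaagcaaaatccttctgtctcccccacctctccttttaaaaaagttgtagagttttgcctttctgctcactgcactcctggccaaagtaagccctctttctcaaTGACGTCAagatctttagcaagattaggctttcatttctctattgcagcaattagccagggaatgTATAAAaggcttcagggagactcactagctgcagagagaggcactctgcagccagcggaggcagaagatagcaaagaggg
Ppargc1a, chr5:51567676-51567975, minus strand: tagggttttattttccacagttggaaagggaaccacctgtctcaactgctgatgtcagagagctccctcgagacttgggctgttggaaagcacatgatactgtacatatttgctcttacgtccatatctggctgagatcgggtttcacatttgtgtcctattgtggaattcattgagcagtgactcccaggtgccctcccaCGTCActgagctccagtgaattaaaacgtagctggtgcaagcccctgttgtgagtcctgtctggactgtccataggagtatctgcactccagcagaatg
Of the 8 windows, TGACG stood in those of Ucp1 (147 to 143 bases before the start), Ppargc1a (49 to 45) and Dio2, against 20.81% of 32851 RefSeq promoters of this length. Dio2 alone held TGACGTCA (95 to 88 bases before the start, the 2 half-sites overlapping within it), against 1.79% of promoters, and it also held TATAAA (30 to 25). TATAAA was also in the Cox8b window, 4 to 9 bases after the start rather than before it, and in 13.62% of all promoters. CCAAT, searched on both strands, was in the windows of Ckmt2, Cox7a1 and Prdm16, against 37.41%. TCAAGGTCA, an extended half-site of oestrogen-related receptors, was in none of the 8 windows and in 0.42% of all promoters. The Otop1 window held none of these letters. A match is a description of letters, not of a bound site.

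Prdm16 encodes a transcriptional coregulator that commits cells to the brown and beige fate (chromosome 4, 154316125 to 154636873, minus strand). It had 231, 151 and 132 counts in the knockouts and 121, 0 and 127 in the controls, or 7.55, 5.30 and 5.12 against 4.53, 0 and 4.66 CPM. The groups did not overlap, but the margin was narrow, with the lowest knockout 1.10 times the highest control. Its log2 fold change was 0.95 ± 1.24 (edgeR adjusted p 0.862) and 0.39 ± 0.36 without control replicate 2, which had no Prdm16 count.

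Ppargc1a encodes PGC-1alpha, the coactivator that drives mitochondrial biogenesis and Ucp1 transcription in brown fat and fasting metabolism in liver (chromosome 5, 51454250 to 51567726, minus strand). It had 79, 59 and 37 counts in the knockouts and 59, 163 and 120 in the controls, or 2.58, 2.07 and 1.44 against 2.21, 14.6 and 4.40 CPM. The groups overlapped, since control replicate 1 lay within the knockouts. Its log2 fold change was −1.79 ± 0.78 (edgeR adjusted p 0.560) and −0.69 ± 0.52 without control replicate 2 (edgeR adjusted p 0.719). The 2 controls above all knockouts are the libraries with the most Alb RNA. With both left out, only control replicate 1 remained as a control and the log2 fold change was −0.11.

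**Figure D2:**
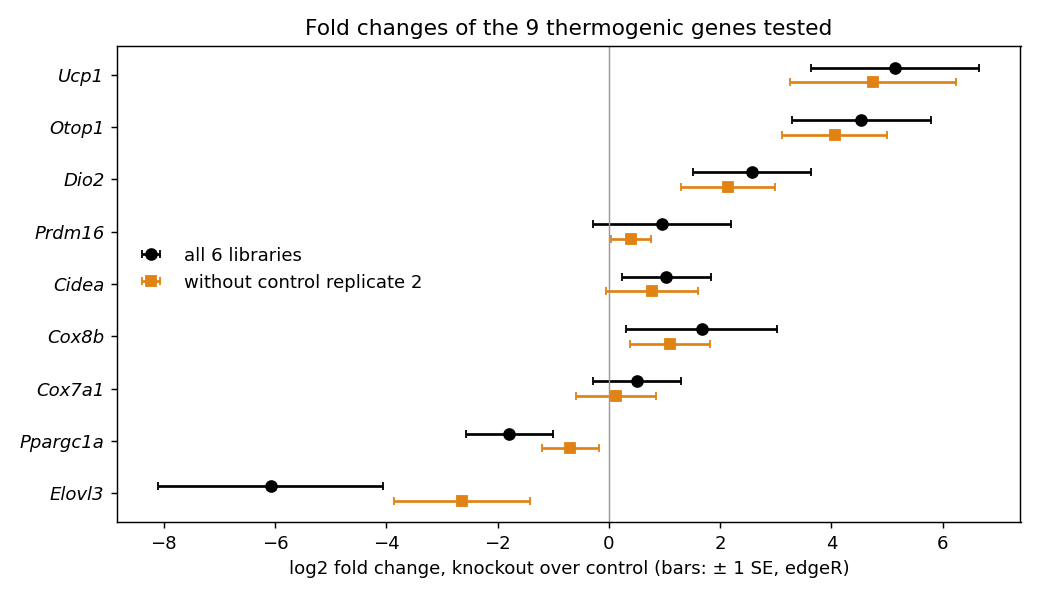
Log2 fold change, knockout against control (horizontal axis), of the 9 thermogenic genes tested, with standard errors, from edgeR with all 6 libraries and without control replicate 2. Ucp1, Otop1 and Dio2 stay above 2 in both fits, Elovl3 goes from −6.08 to −2.64, and every adjusted p is above 0.05.

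Cidea encodes a lipid droplet protein named for its link to cell death and abundant in brown fat. It had 133, 65 and 387 counts in the knockouts and 81, 24 and 146 in the controls, or 4.35, 2.28 and 15.0 against 3.03, 2.15 and 5.35 CPM. Knockout replicate 3 stood apart from the other 5 libraries, which overlapped. That gave a log2 fold change of 1.03 ± 0.80 (edgeR adjusted p 0.723), and −0.07 without knockout replicate 3. Cidea overlaps B430212C06Rik on the opposite strand, which had 248, 145 and 245 counts in the knockouts and 79, 0 and 183 in the controls, and no source used here names the strand setting of the counting.

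Elovl3 encodes an elongase of very long chain fatty acids that is induced in brown fat by cold and is also made in liver (chromosome 19, 46131897 to 46135694, plus strand). It had 14, 73 and 5 counts in the knockouts and 54, 2294 and 322 in the controls, or 0.458, 2.56 and 0.194 against 2.02, 205 and 11.8 CPM. The groups overlapped through knockout replicate 2 and control replicate 1. Without control replicate 2 the control mean went from 73.0 to 6.91 CPM, and the log2 fold change from −6.08 ± 2.02 to −2.64 ± 1.22 (edgeR adjusted p 0.560 and 0.575). DESeq2 called it with all 6 libraries (adjusted p 0.0059) but not without control replicate 2 (0.253). With control replicates 2 and 3 both left out, which leaves 1 control, edgeR gave a log2 fold change of −0.90. The 10 hepatocyte markers had list means of 1.43, 5.89 and 3.22 log2(CPM + 1) in the knockouts and 2.30, 13.02 and 8.48 in the controls, so control replicate 1 lay below knockout replicates 2 and 3. They summed to 127.4 to 2079 CPM in the knockouts, with up to 1 at 0, and to 8110 to 223400 in the controls, with up to 2 at 0. Cyp2e1 alone made up 8089 of the 8110 CPM in control replicate 1 and 1991 of the 2079 in knockout replicate 3. Within each group the library with the most Alb also had the most Elovl3, and the part of liver RNA in its difference was not tested.

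Cox7a1 and Cox8b encode the isoforms of cytochrome oxidase subunits used in heart, skeletal muscle and brown fat, where Cox7a2 and Cox8a are the forms of most other tissues. Cox8b (chromosome 7, 140898945 to 140900446, minus strand) had 188, 136 and 522 counts in the knockouts and 164, 0 and 96 in the controls. In CPM these were 6.14, 4.77 and 20.3 against 6.14, 0 and 3.52, so control replicate 1 lay among the knockouts. Its log2 fold change was 1.67 ± 1.36 (edgeR adjusted p 0.742) and 1.10 ± 0.72 without control replicate 2. Cox7a1 (chromosome 7, 30184144 to 30186078, plus strand) had 91, 54 and 195 counts against 142, 13 and 60, or 2.97, 1.89 and 7.57 against 5.32, 1.16 and 2.20 CPM. For Cox7a1 this gave a log2 fold change of 0.51 ± 0.79 (edgeR adjusted p 0.890), or 0.13 ± 0.72 without control replicate 2 and −0.25 without knockout replicate 3.

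As a share of the isoform pair, which needs no scaling between libraries, the values separated. Cox8b made up 3.14% (95% exact Clopper-Pearson interval 2.71% to 3.62%), 2.23% (1.87% to 2.63%) and 3.70% (3.39% to 4.02%) of Cox8b plus Cox8a counts in the knockouts. It made up 0.578% (0.494% to 0.674%), 0 of 4214 counts (interval up to 0.0875%, where 3 counts would be 0.0712%) and 1.11% (0.903% to 1.36%) in the controls. The group difference was 2.46 percentage points, with an exact two-sided permutation p of 0.1, the smallest that 3 against 3 libraries allow. The Cox7a1 share of Cox7a1 plus Cox7a2 was 2.57% (2.08% to 3.15%), 2.11% (1.59% to 2.74%) and 3.13% (2.71% to 3.59%) in the knockouts. It was 1.56% (1.31% to 1.83%), 0.342% (0.182% to 0.585%) and 2.06% (1.57% to 2.64%) in the controls. The difference was 1.28 percentage points, again at an exact permutation p of 0.1, and 0.796 without control replicate 2, and the intervals of knockout replicates 1 and 2 overlapped that of control replicate 3, as that of knockout replicate 2 did that of control replicate 1. These intervals cover counting error only. The ubiquitous isoforms had log2 fold changes of −0.91 ± 0.70 for Cox8a and −0.84 ± 0.62 for Cox7a2, so the shares rest on both genes of each pair. The 12 skeletal muscle markers summed to 17.4, 22.0 and 100 CPM in the knockouts, with 1 to 4 at 0, and to 28.4, 4.20 and 34.9 in the controls, with 2 to 9 at 0. Ckm had at most 3 counts and Myh4 at most 5 in any library, while Tnni2 had 17, 24 and 27 against 0, 0 and 2 counts and Acta1 10.8, 14.9 and 90.4 against 22.7, 1.43 and 31.3 CPM. Of 6 tested muscle markers 5 were above 0, at a median of 1.19, and 7 of 8 at 0.63 without control replicate 2. DESeq2 called 1 of the 6 tested, Tnni2, higher with all 6 libraries, against 3.3% of all genes. Without control replicate 2 it called 0 of 8 muscle markers, against 2.7% of all genes. The part of muscle RNA in the isoform shares was not tested.

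**Figure D3:**
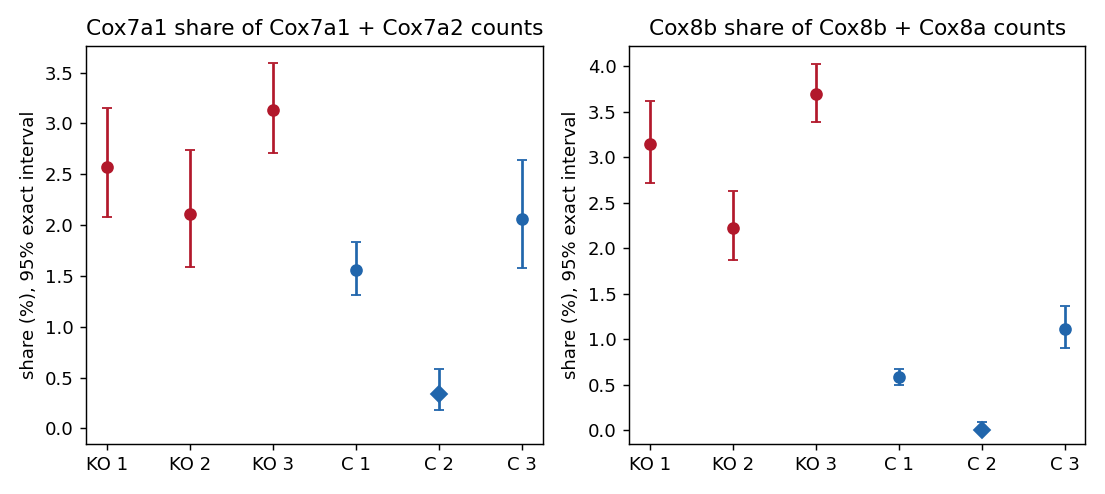
Share of Cox7a1 in Cox7a1 plus Cox7a2 counts and of Cox8b in Cox8b plus Cox8a counts (percent) for each library, with exact 95% intervals, knockouts in red and controls in blue. The knockouts lie between 2.11% and 3.13% for Cox7a1 and between 2.23% and 3.70% for Cox8b, above the highest controls at 2.06% and 1.11%.

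Ckmt2, the mitochondrial creatine kinase of muscle and brown fat (chromosome 13, 91853387 to 91876885, minus strand), had 0 counts in all 6 libraries. Its cytosolic relative Ckb, which takes part in creatine cycling in thermogenic fat, had 184, 350 and 84.6 CPM against 32.0, 10.7 and 75.6 in the controls. All knockouts lay above the controls, with a log2 fold change of 2.38 ± 0.85 (edgeR adjusted p 0.560). Ckb was highest in knockout replicates 1 and 2, the libraries with the most macrophage RNA, and its part in this was not tested.

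Per length, within a library, the order of the genes in the deposited FPKM (fragments per kilobase of transcript per unit of depth) put Cox8b first in 5 libraries, at 15.2, 12.2 and 49.1 in the knockouts and 14.8 and 8.77 in control replicates 1 and 3. In control replicate 2 Elovl3 was first at 128.6, and 6 of the 10 genes were at 0. Ucp1 was the fifth, the sixth and the fourth of the 10 in the knockouts, at 1.51, 1.20 and 5.47 FPKM, and reached 0.201 in control replicate 3. It was thus well below the Cox8b level in each library in which it was found.

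**Figure D4:**
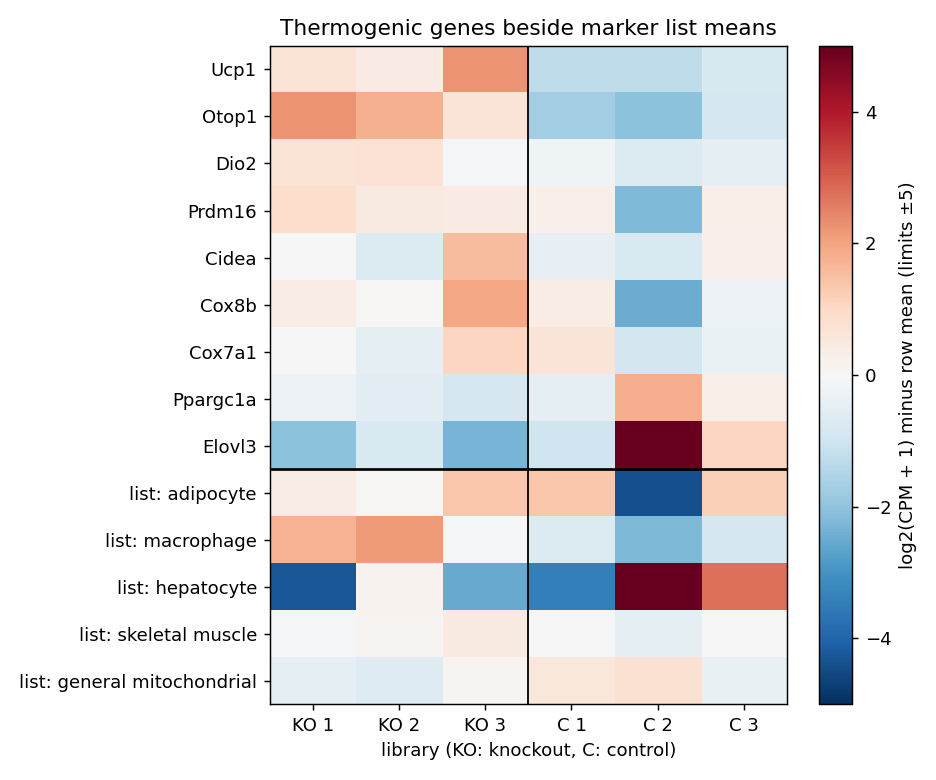
Log2(CPM + 1) of 9 thermogenic genes (all but Ckmt2) and the means of the marker lists, each centred on its mean over the 6 libraries (colour scale limited to ±5), by library. Control replicate 2 is high for hepatocyte genes, Elovl3 and Ppargc1a and low for adipocyte genes; macrophage genes are highest in knockout replicates 1 and 2.

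The genes do not share 1 pattern. Knockout replicate 3 was the highest library for Ucp1, Cidea, Cox7a1 and Cox8b, replicate 1 for Otop1 and Prdm16, replicate 2 for Dio2, and control replicate 2 for Elovl3 and Ppargc1a. By root mean square distance between log2(CPM + 1) profiles over the 6 libraries, each centred on its mean, the genes nearest Ucp1 among 13079 candidates were Trac (0.559), Hist2h3c2 (0.576), Wdr95 (0.590), Dusp15 (0.592) and Gm48371 (0.617). Of the thermogenic genes Cidea was the nearest at 0.831, with 48 candidates closer, then Cox8b at 0.881 with 109 closer. Otop1 was at 1.136 with 1965 closer and Elovl3 at 3.502 with 12826 closer. The order is a description over 6 libraries.

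The rest of the thermogenic programme was read from lists of other genes. In none of these lists did the edgeR test call a gene. DESeq2 called Ppara, Mpzl2 and Pank1 lower with all 6 libraries. Without control replicate 2 it called Ppara lower and Cebpb, Fabp3 and Ryr1 higher. Of 13 tested genes of adrenergic input and signalling, 8 were above 0, with a median log2 fold change of 0.38 (0.17 without control replicate 2). Adrb3, the beta-3 adrenergic receptor of fat cells, had 225, 120 and 491 CPM against 27.6, 32.5 and 418 in the controls (0.81 ± 1.17, and 0.33 ± 1.09 without control replicate 2), so that control replicate 3 lay among the knockouts. Of 16 transcriptional regulators 8 were above 0, with a median of 0.02. Leaving out control replicate 2, it was 6 of 17, with a median of −0.08. Ppara, a fatty acid-sensing nuclear receptor abundant in liver, had 1.14, 1.12 and 1.12 CPM against 3.82, 55.1 and 5.94 in the controls. Its log2 fold change was −4.25 ± 1.14, and −2.09 ± 0.43 without control replicate 2; DESeq2 called it in both. Esrrg, an oestrogen-related receptor of oxidative tissues, went from −1.23 to 0.03 without that library, Tfam, the mitochondrial transcription factor, from −1.21 to −0.08, and Ppargc1b from −0.24 to 0.00. Of 9 repressors of thermogenesis 6 were above 0, at a median of 0.31, and 5 of 9 at 0.17 without control replicate 2.

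Of 17 surface and secreted markers of beige and brown cells, 11 were above 0, with a median of 0.17 (−0.16 without control replicate 2). All knockouts lay above all controls for 4 of the 17 and below them for 2, against 9.54% and 5.61% of all genes tested. Epsti1 had 16.6, 16.9 and 9.70 CPM against 2.73, 4.92 and 6.38 in the controls, without overlap. Its order across the knockouts was that of the macrophage list. Ear2 had 12.1, 18.6 and 23.2 CPM against 7.26, 5.81 and 8.80, also without overlap, and in another order. The part of immune cell RNA in the values of Epsti1 and Ear2 was not tested. Mpzl2 went the other way, with 3, 11 and 1 counts in the knockouts and 22, 126 and 47 in the controls. All its knockouts lay below all controls in CPM. Its log2 fold change was −4.66 ± 1.38, and −2.80 ± 1.03 without control replicate 2. Fgf21, a hormone of liver and fat that promotes browning, had 0.882, 0.666 and 0.776 CPM against 2.58, 8.59 and 1.47 (−2.42 ± 0.78, and −1.38 ± 0.54 without control replicate 2), with all knockouts below all controls. Of 17 genes of fuel oxidation 5 were above 0, at a median of −1.18, and −0.11 without control replicate 2. Gpd2, of the glycerol phosphate shuttle, was at −1.18 ± 0.44 (−0.61 ± 0.24 without control replicate 2) and Acot2, a mitochondrial thioesterase, at −1.19 ± 0.45. Pank1, a pantothenate kinase high in liver, went from −5.19 to −1.35 without that library. Cpt1b, the muscle and brown fat carnitine palmitoyltransferase, had 4, 0 and 1 counts against 0, 0 and 3 and was not tested. Of 8 tested genes of creatine and calcium cycling 5 were above 0, at a median of 1.06 (0.77 without control replicate 2). Ryr1 was at 2.35 ± 1.09, Slc6a8, the creatine transporter, at 1.58 ± 0.69 and Gatm at 1.36 ± 0.73. Slc6a8 and Gatm overlapped between the groups. The order of Ryr1, Slc6a8 and Gatm across the knockouts was that of the macrophage list, and the part of macrophage RNA in this was not tested.

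Of 17 relatives of the 10 genes 8 were above 0, at a median of −0.24 (−0.11 without control replicate 2). Ucp2, an uncoupling protein relative abundant in immune cells, had 792, 926 and 364 CPM in the knockouts and 312, 29.7 and 255 in the controls, without overlap (1.80 ± 0.89, edgeR adjusted p 0.575), and its order across the knockouts was that of the macrophage list. Ucp3, the muscle relative, was at 0.53 ± 1.17, and at −0.03 ± 0.44 without control replicate 2. In the liver-rich control replicate 2, Cideb had 1500 counts and Dio1 2769, and their log2 fold changes were −6.69 ± 2.65 and −7.04 ± 3.19, or −1.88 ± 1.73 and −3.32 ± 2.67 when that library was left out. General mitochondrial genes had the opposite sign to Ucp1: 14 of 14 log2 fold changes were below 0, with a median of −0.86. Without control replicate 2, 1 of 14 was above 0 and the median was −0.41. The list means were 7.15, 6.95 and 7.71 log2(CPM + 1) in the knockouts and 8.16, 8.37 and 7.23 in the controls. Control replicate 3 thus lay among the knockouts. The 10 adipocyte markers had a median of −0.10 with all 6 libraries, and of −0.67 with 1 of 10 above 0 without control replicate 2. Uqcrc2, a subunit of complex III, was at 104, 90.7 and 115 CPM against 239, 348 and 136 (−1.22 ± 0.43, edgeR adjusted p 0.560). It was the 1 gene of the 14 with all knockouts below all controls, as 5.61% of all genes tested were. The share of counts from mitochondrially encoded genes was 2.64% to 3.89% in the knockouts and 5.45% to 9.08% in the controls.

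**Figure D5:**
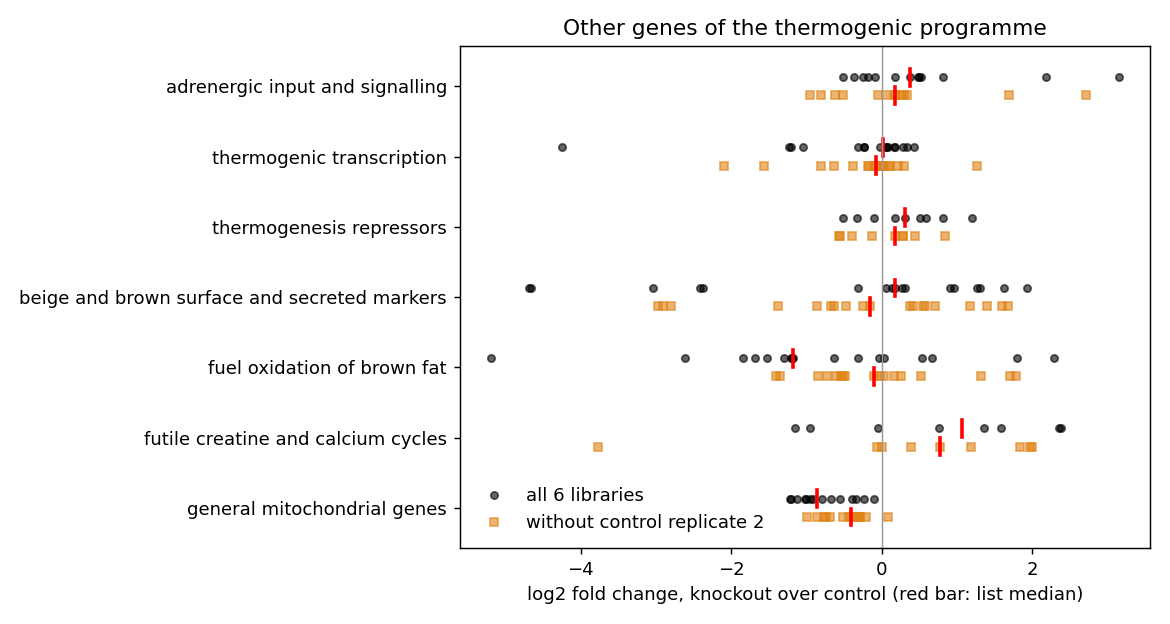
Log2 fold changes, knockout against control (horizontal axis), of each tested gene in 7 lists of the wider programme, from edgeR with all 6 libraries (dark circles) and without control replicate 2 (orange squares); red bars are list medians. Fuel oxidation genes have medians of −1.18 and −0.11 in these fits, and general mitochondrial genes of −0.86 and −0.41.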

How the data were processed

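Per the submitters' processing notes, the tools were featureCounts 1.5.0-p3, StringTie 1.3.3b, HISAT2 2.0.5 and fastp, and the build was mm10. The strand setting and the annotation used for counting are named in no source used here. The authors deposited raw counts per gene and library, which were used for the tests, and FPKM values, which were used for the order per length and for alternatives. Symbols were matched for 54409 of 54532 identifiers, with coordinates from GENCODE vM21 on GRCm38, the assembly of mm10.

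Genes were tested with edgeR 4.0.16 in R 4.3.3 (robust quasi-likelihood, filterByExpr by group, TMM, Benjamini-Hochberg at 0.05 over all genes tested), with all 6 libraries as the main fit. The standard error is the log2 fold change over the root of F. TMM factors ran from 0.982 to 1.25, with control replicate 2 at 0.559. Alternatives used DESeq2 1.42.0, limma 3.58.1 (voom, or FPKM with pseudocounts of 1 and 0.1), DESeq2's size factors, other filters, a model term for the number range in the titles, and leaving out single libraries.

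The genes and lists were chosen with earlier results of these data known, and replicate numbers follow the sample records. Named are all 10 thermogenic genes, up to 4 genes of smallest p per list, 11 further genes named by symbol whatever their values (Adrb3, Esrrg, Cpt1b, Ucp2, Ucp3, Cox7a2, Cox8a, Ckb, Ppargc1b, Adipoq, Alb) and the 5 profiles nearest Ucp1 with mean log CPM of at least 1. Pdcd1, Ckm, Myh4, Cebpb and Fabp3 were added after their values were seen.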

Additional observations from a re-analysis of the deposited data

How the results depend on the processing

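No paired analysis was possible because the labels give no shared replicate numbers. A model term for the number range in the titles set the replicate 3 libraries of both groups against the rest. It gave Ucp1 6.11 ± 1.11 (edgeR adjusted p 0.789), a median of 1.03 over the thermogenic genes, and 0 calls. Only the replicate 3 libraries have title numbers close to those of the other group. Among the rest, knockouts and controls have title numbers in separate ranges. The term treats these ranges as 1 level, so it cannot separate number range from genotype there. With DESeq2, 525 genes passed in all 6 libraries and 452 without control replicate 2, of which 3 and 2 were thermogenic genes, while edgeR called 0 in every setting run, each library left out included. Ucp1 had a log2 fold change of 5.24 with DESeq2 and 4.78 with DESeq2 without control replicate 2; leaving out single libraries other than control replicate 3, edgeR gave 4.17 (without knockout replicate 3) to 5.56 (without knockout replicate 2). Where control replicate 3 was left out, alone or with control replicate 2, the remaining controls have no Ucp1 count and no fold is given. The DESeq2 and limma-voom runs without control replicate 2 and the prior count of 1 were chosen after seeing the data. The median over the thermogenic genes was 1.95 with limma-voom, 0.43 on log2(FPKM + 1) and 0.38 with limma-voom without control replicate 2, and 0.77 to 1.47 over the libraries left out. Leaving out knockout replicate 3 turned Cidea to −0.07 (range over libraries left out −0.07 to 1.47) and Cox7a1 to −0.25 (−0.25 to 1.29); Cox7a1 was −0.35 without control replicates 2 and 3. The Ucp1 level relative to adipocyte genes differed by 3.35 on log2(CPM + 0.1) and by −0.0701 to 2.82 over the libraries left out. The lowest was without control replicate 1, which leaves control replicates 2 and 3 at −4.21 and −9.35. Control replicate 2 had no Ucp1 count, so its value is minus its low adipocyte mean. The isoform share differences were 2.20 percentage points for Cox7a1 and 3.65 for Cox8b on FPKM, which divides each gene by its length, and 0.796 to 1.65 and 2.12 to 2.86 over the libraries left out. The detection floor of 3 counts equals 0.110 to 0.268 CPM in the controls and 0.098 to 0.116 CPM in the knockouts.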

Other observations

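Adrb3 did not follow the adipocyte markers in control replicate 1. That library had 27.6 CPM of Adrb3 beside 3649 CPM of Adipoq, whereas control replicate 3 had 418 beside 1719 and knockout replicate 3 had 491 beside 2614. Kcnk3, a potassium channel gene singled out after its values were seen, had 5.24 CPM in control replicate 1, 27.2 in control replicate 3 and 36.2 to 46.1 in the knockouts. Crisp1, an epididymal secretory gene, had 1033 counts in control replicate 1, 205 in control replicate 3, 33 in control replicate 2 and 5 to 70 in the knockouts.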
